A study of Mus musculus with 8 samples.

Results

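Glycine and serine are amino acids that the liver makes, interconverts and burns, and the 9 genes described here encode enzymes that carry out these steps. The genes were Gldc, Amt, Gcsh, Glyat, Phgdh, Psat1, Psph, Shmt2 and Sds, taken by symbol because AGXT (alanine-glyoxylate aminotransferase) makes glycine from glyoxylate. Each matched 1 Ensembl gene among the 52636 genes in the counts, and all 9 passed the filter on low counts that left 15248 genes to test. RNA came from a portion of the liver of each of 8 wild-type male C57BL/6J mice, 4 given AAV8-TBG-GFP (AAV8-GFP) and 4 given AAV8-TBG-AGXT (AAV8-AGXT). The vector, adeno-associated virus of serotype 8, homes to the liver, and its TBG (thyroxine-binding globulin) promoter switches the cargo on in hepatocytes. The transgene was thus aimed at 1 cell type, while the RNA came from all cells of the tissue sampled. All 8 mice received virus at 7 weeks of age and were moved at 8 weeks of age to the MASH (or NASH) diet, which is rich in fat, fructose and cholesterol. Livers were taken after 24 weeks of that diet, and no mice on a control diet are among these libraries. Animal numbers serve as names, with mice 303, 311, 314 and 315 in the AAV8-GFP group and mice 308, 309, 316 and 319 in the AAV8-AGXT group.

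The glycine cleavage system of mitochondria splits glycine into carbon dioxide, ammonia and a one-carbon unit carried by folate. GLDC removes the carbon dioxide, GCSH (the H protein) carries the remaining group on a lipoyl arm, and AMT passes the one-carbon unit to folate. DLD (the L protein), which is shared with other mitochondrial complexes and is not among the 9, reoxidizes the lipoyl arm. SHMT2 converts serine and glycine into each other in the same compartment, and GLYAT joins glycine to acids such as benzoate for excretion. Serine itself is made from a glycolytic intermediate by PHGDH, PSAT1 and PSPH in turn, and it is broken down to pyruvate by SDS, an enzyme known for its induction during fasting and high protein intake.

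Depth, as read pairs that fell on genes, ran from 19747909 to 28780140 in the AAV8-GFP libraries and from 17095433 to 23940200 in the AAV8-AGXT libraries. These were 63.3% to 69.1% of all tallied read pairs in AAV8-GFP mice and 56.3% to 64.8% in AAV8-AGXT mice, with mouse 308 lowest. Levels are given as CPM (counts relative to a fixed library total after TMM scaling), as mean ± SD with n = 4 mice per group. A gene was called changed at an adjusted p under 0.05 in edgeR's quasi-likelihood test. In bulk liver, fewer cells of a type and less RNA per cell cannot be told apart.

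The 9 enzymes fell into an abundant and a scarce set. Per kilobase of exon, Shmt2 had the highest level in AAV8-GFP mice, 65.8 ± 3.68 CPM per kilobase, followed by Glyat at 51.1 ± 4.08, Gcsh at 45.2 ± 3.0 and Sds at 39.9 ± 19.6. Amt at 21.6 ± 1.56 and Gldc at 16.2 ± 4.30 CPM per kilobase came next. Levels then dropped to 1.42 ± 0.524 for Psph, 0.596 ± 0.145 for Psat1 and 0.375 ± 0.134 CPM per kilobase for Phgdh. Among the 15231 tested genes with a length, Shmt2 stood at the 95th percentile of level per kilobase, Gldc at percentile 83.5 and Phgdh at percentile 10.6. In that order of AAV8-GFP levels, the ranges over mice of Gcsh and Sds, Sds and Amt, Amt and Gldc, and Psat1 and Phgdh overlapped. Ranges ignore that both levels came from the same mice, and differences within a mouse were not tested. Shmt2 and Glyat, Gldc and Psph, and Psph and Psat1 lay apart, and Glyat and Gcsh were narrowly apart, 47.8 against 47.7 CPM per kilobase. AAV8-AGXT mice had the same split. Their levels per kilobase were 80.9 ± 3.38 for Shmt2, 60.9 ± 5.06 for Glyat, 60.6 ± 25.9 for Sds, 59.6 ± 4.34 for Gcsh, 21.9 ± 2.38 for Amt and 17.1 ± 4.47 for Gldc. Psph followed at 1.17 ± 0.112, Psat1 at 0.357 ± 0.256 and Phgdh at 0.255 ± 0.136 CPM per kilobase. Here the ranges of Glyat and Sds, Sds and Gcsh, Amt and Gldc, and Psat1 and Phgdh overlapped.

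**Figure D1:**
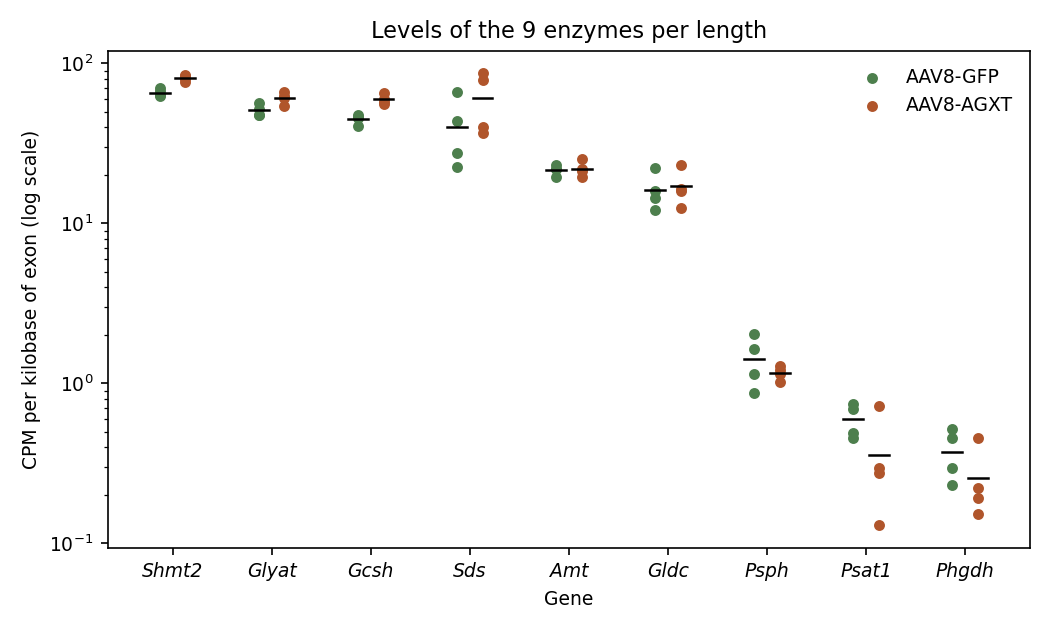
Level of each of the 9 enzymes in CPM per kilobase of exon on a log axis, with 1 point per mouse, AAV8-GFP in green and AAV8-AGXT in orange, and a line at each group's mean. Shmt2, Glyat, Gcsh, Sds, Amt and Gldc had means of 16.2 or more in both groups, while Psph, Psat1 and Phgdh had means of 1.42 or less.

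Of the 9 genes, 1 was called higher in AAV8-AGXT mice (Gcsh) and 0 were called lower, against 2.45% and 1.90% of all genes tested. The means of 6 were higher and of 3 lower, with a median log2 fold change of 0.07 beside 0.02 over all genes tested. At an unadjusted p under 0.05, 2 were higher (Gcsh and Shmt2) and 0 lower. Many genes came near that threshold in these data. Glyat, at an unadjusted edgeR p of 0.0509, ranked 4027 by p among the 15248 genes tested, both directions together. The DESeq2 Wald test called Gcsh and Shmt2 higher and 0 of the 9 lower, in a fit that called 7.08% of genes higher and 6.93% lower. Limma-voom called 1 higher and 0 lower. In 2 of the 9, Gcsh and Shmt2, the groups did not overlap, against 16.6% of all genes tested.

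**Figure D2:**
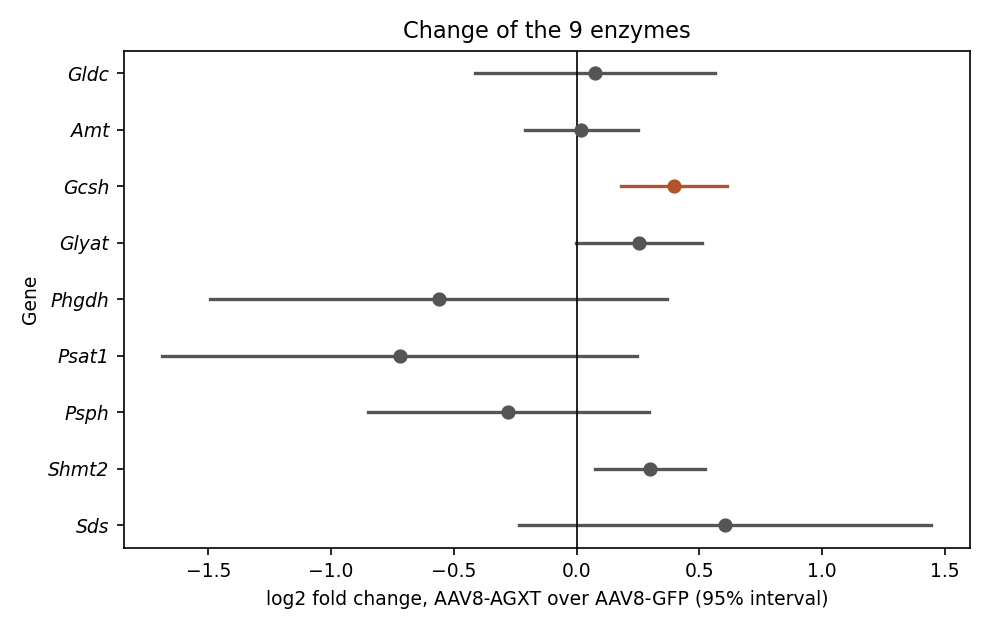
Log2 fold change of each enzyme, AAV8-AGXT over AAV8-GFP, from edgeR, with bars for the 95% interval and the gene with an adjusted p under 0.05 in orange. Gcsh at 0.40 is the one called, and the intervals of Phgdh, Psat1, Psph and Sds are wide and include 0.

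Gcsh, the lipoyl-bearing carrier of the glycine cleavage system, lies on chromosome 8 at 116981810 to 116993537 on the minus strand (GRCm38, ENSMUSG00000034424). It read 72.0, 64.6, 75.3 and 73.6 CPM in AAV8-GFP mice 303, 311, 314 and 315. In AAV8-AGXT mice 308, 309, 316 and 319 it read 103.1, 90.1, 87.7 and 95.3 CPM. Every AAV8-AGXT mouse lay above every AAV8-GFP mouse, with mouse 308 highest and mouse 311 lowest. The means were 71.4 ± 4.74 and 94.0 ± 6.85 CPM, 1.32-fold higher with AAV8-AGXT. The log2 fold change was 0.40 (SE 0.097, 95% interval 0.18 to 0.61), with an edgeR adjusted p of 0.0495 and a two-sided exact permutation p of 0.0286, the smallest that 4 mice against 4 allow. The call was narrow. It was lost in each of the 8 fits that left out 1 mouse, in which the log2 fold change stayed between 0.33 and 0.43 and the edgeR adjusted p ran from 0.0525 to 0.167, highest without mouse 311. It was also lost when libraries were scaled by total counts (adjusted p = 0.216). The 4 near-identical copies of Gcsh in the annotation are other genes of at least 90% identity over 300 or more bases, and the most counted of them, Gm37201, held 46 counts over all mice beside at least 1494 counts of Gcsh in each mouse.

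Gldc and Amt, which encode partners of the H protein, were not called, and their groups overlapped. Gldc (chromosome 19, 30098447 to 30175429, minus strand, ENSMUSG00000024827) read 88.1, 74.2, 97.1 and 135.3 CPM in AAV8-GFP mice 303, 311, 314 and 315, and 97.8, 141.6, 76.5 and 99.8 CPM in AAV8-AGXT mice 308, 309, 316 and 319. The groups overlapped over almost their whole range, each with 1 mouse well above its others, mouse 315 and mouse 309. Means were 98.7 ± 26.2 and 103.9 ± 27.3 CPM, for a log2 fold change of 0.07 (SE 0.22, 95% interval -0.41 to 0.56, edgeR adjusted p = 0.861, exact permutation p = 0.686). The sign of this small difference turned when mouse 311 or mouse 309 was left out.

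Amt (chromosome 9, 108296853 to 108302302, plus strand, ENSMUSG00000032607) read 53.3, 47.4, 56.5 and 53.7 CPM in AAV8-GFP mice 303, 311, 314 and 315, and 52.0, 61.3, 47.4 and 53.1 CPM in AAV8-AGXT mice 308, 309, 316 and 319. The groups overlapped, and mouse 309 was highest for Amt as it was for Gldc. With means of 52.7 ± 3.81 and 53.4 ± 5.80 CPM, the log2 fold change was 0.02 (SE 0.10, 95% interval -0.21 to 0.25, edgeR adjusted p = 0.930, exact permutation p = 0.971). The 95% interval of Amt kept its difference to 0.25 or less on the log2 scale, while that of Gldc reached 0.56. Dld, the remaining component, was named outside the rule for other genes, after its values were seen. It read 79.1 ± 15.2 and 90.7 ± 13.2 CPM with overlapping groups (log2 fold change 0.20, SE 0.16, 95% interval -0.15 to 0.54, edgeR adjusted p = 0.447, exact permutation p = 0.286). Differences between the fold changes of Gldc, Amt, Gcsh and Dld were not tested.

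Shmt2, which interconverts serine and glycine in mitochondria, lies on chromosome 10 at 127517123 to 127522444 on the minus strand (ENSMUSG00000025403). Its levels were 207.9, 193.2, 197.7 and 218.9 CPM in AAV8-GFP mice 303, 311, 314 and 315, and 261.6, 248.2, 238.3 and 258.2 CPM in AAV8-AGXT mice 308, 309, 316 and 319. The groups did not overlap, with a gap between mouse 315 and mouse 316, and Shmt2 had the smallest spread of the 9 genes (CV 5.59% and 4.18%). Means of 204 ± 11.4 and 252 ± 10.5 CPM gave a 1.23-fold ratio and a log2 fold change of 0.30 (SE 0.10, 95% interval 0.07 to 0.52). Its edgeR adjusted p of 0.103 missed the threshold, the DESeq2 adjusted p was 0.00626, and the exact permutation p was 0.0286. No fit with a mouse left out called it, with edgeR adjusted p between 0.0991 and 0.289.

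The stretches just upstream of Gcsh and Shmt2 are shown because these are the 2 genes whose groups did not overlap, and they differ in composition. Both are RefSeq sequence of build GRCm38.p6 on the minus strand, written 5′ to 3′, and each ends where the annotated gene begins, chr8:116993538-116993748 for Gcsh and chr10:127522445-127522694 for Shmt2. Capitals mark matches on either strand to the CCAAT box (CCAAT) and the GC box (GGGCGG).
Gcsh: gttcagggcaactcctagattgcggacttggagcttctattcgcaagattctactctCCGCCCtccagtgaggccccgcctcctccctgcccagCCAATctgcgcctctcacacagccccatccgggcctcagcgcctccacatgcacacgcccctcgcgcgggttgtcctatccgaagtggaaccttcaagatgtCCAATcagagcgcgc
Shmt2: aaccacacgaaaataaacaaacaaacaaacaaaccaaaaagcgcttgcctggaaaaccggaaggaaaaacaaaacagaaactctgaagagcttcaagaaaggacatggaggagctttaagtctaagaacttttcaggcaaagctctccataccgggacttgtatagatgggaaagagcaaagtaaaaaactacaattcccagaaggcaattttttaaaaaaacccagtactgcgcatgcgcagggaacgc
The Gcsh stretch of 211 bases held 2 CCAAT boxes and 1 GC box, and the Shmt2 stretch of 250 bases held 0 of either. Over RefSeq's 300-base windows, from 250 bases before to 50 after a start, the G and C share was 66.3% for Gcsh and 42.7% for Shmt2. RefSeq gave 9 such windows for 8 of the 9 genes. A CCAAT box was in 6 of these 9 windows and in 37.4% of all 32851 windows, and a GC box in 5 of 9 and in 35.7% of all. The composite element of ATF4 and C/EBP, searched as TGATGNAA on both strands, and the full cAMP response element TGACGTCA were in 0 of the 9 windows, against 3.97% and 1.79% of all windows. These are matches of letters only.

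Glyat, which conjugates glycine, lies on chromosome 19 at 12633308 to 12653911 on the plus strand (ENSMUSG00000063683). It read 249, 229, 229 and 269.6 CPM in AAV8-GFP mice 303, 311, 314 and 315, and 300.1, 290.3, 259 and 316 CPM in AAV8-AGXT mice 308, 309, 316 and 319. The groups overlapped by a single pair, since only AAV8-GFP mouse 315 lay above an AAV8-AGXT mouse, mouse 316. Means of 244 ± 19.5 and 291 ± 24.2 CPM gave a log2 fold change of 0.26 (SE 0.12, 95% interval -0.0012 to 0.51, edgeR adjusted p = 0.193, exact permutation p = 0.0571). No alternative fit called Glyat.

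**Figure D3:**
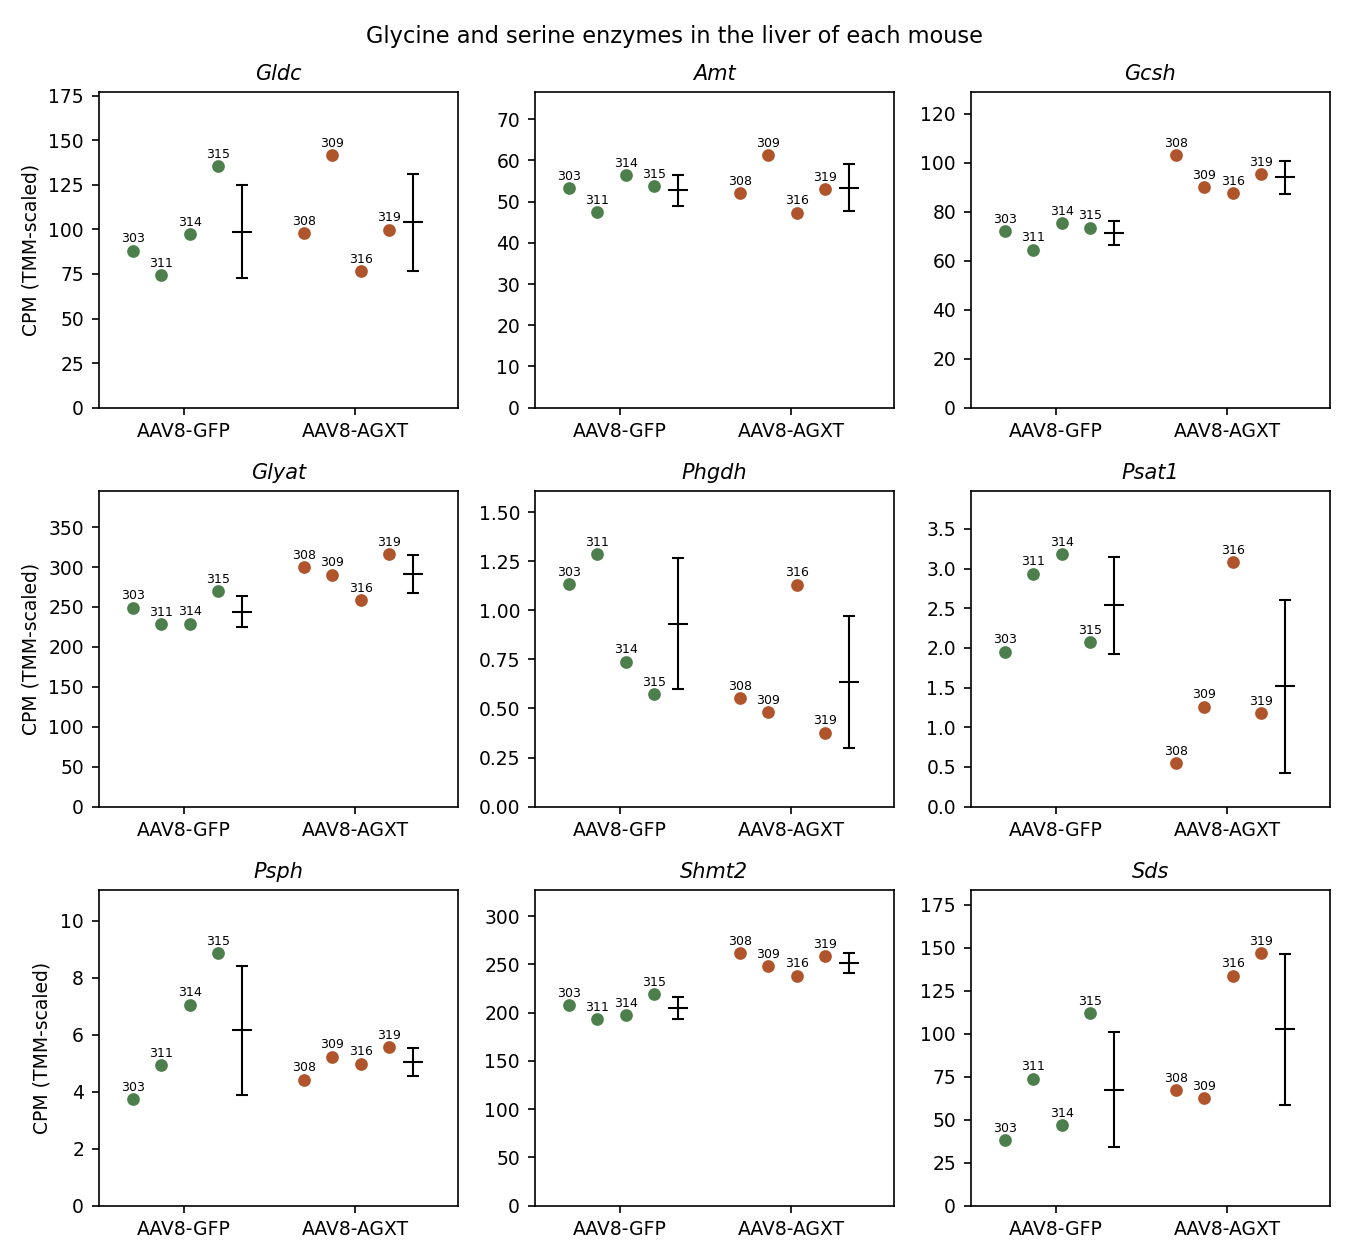
CPM of each of the 9 enzymes in each mouse, labelled by animal number, with the mean and SD of 4 mice beside each group and every axis starting at 0. Gcsh and Shmt2 show no overlap between the groups, Glyat overlaps by 1 pair of mice, and mouse 316 stands above the other AAV8-AGXT mice for Phgdh and Psat1.

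The 3 enzymes of serine synthesis were scarce, and their means were all lower in AAV8-AGXT mice without any passing the test. Phgdh, the first enzyme (chromosome 3, 98313170 to 98339990, minus strand, ENSMUSG00000053398), read 1.13, 1.29, 0.738 and 0.573 CPM in AAV8-GFP mice 303, 311, 314 and 315, and 0.552, 0.481, 1.13 and 0.378 CPM in AAV8-AGXT mice 308, 309, 316 and 319. The groups overlapped, with mouse 316 above mice 314 and 315 and below mice 303 and 311. These levels rest on 8 to 42 counts per mouse, and 19 near-identical copies of Phgdh in the annotation make its counts uncertain, since read pairs that align at several places were not counted. The log2 fold change was -0.56 (SE 0.42, 95% interval -1.49 to 0.37, edgeR adjusted p = 0.420, exact permutation p = 0.171).

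Psat1, the aminotransferase of the second step (chromosome 19, 15904678 to 15947337, minus strand, ENSMUSG00000024640), read 1.95, 2.94, 3.18 and 2.07 CPM in AAV8-GFP mice 303, 311, 314 and 315, and 0.552, 1.26, 3.08 and 1.18 CPM in AAV8-AGXT mice 308, 309, 316 and 319. Apart from mouse 316, each AAV8-AGXT mouse lay below each AAV8-GFP mouse. Its log2 fold change was -0.72 (SE 0.43, 95% interval -1.69 to 0.25, edgeR adjusted p = 0.318, exact permutation p = 0.114). Without mouse 316 it was -1.32 with an edgeR adjusted p of 0.0710, which still missed the threshold.

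Psph, the phosphatase of the last step (chromosome 5, 129765558 to 129787449, minus strand, ENSMUSG00000029446), read 3.75, 4.93, 7.06 and 8.86 CPM in AAV8-GFP mice 303, 311, 314 and 315, and 4.42, 5.23, 4.98 and 5.57 CPM in AAV8-AGXT mice 308, 309, 316 and 319. All AAV8-AGXT mice lay inside the AAV8-GFP range, and the spread was 36.9% of the mean in AAV8-GFP mice and 9.59% in AAV8-AGXT mice. The fit gave a log2 fold change of -0.28 (SE 0.26, 95% interval -0.85 to 0.29, edgeR adjusted p = 0.524, exact permutation p = 0.486). Psph shares 452 bases with Cct6a on the opposite strand, and the sources used here do not state whether the counting used strand.

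Sds, which breaks serine down to pyruvate, was the most variable of the abundant enzymes. It lies on chromosome 5 at 120476526 to 120483932 on the plus strand (ENSMUSG00000029597). Levels were 37.9, 73.8, 46.7 and 111.8 CPM in AAV8-GFP mice 303, 311, 314 and 315, and 67.4, 62.6, 133.7 and 146.9 CPM in AAV8-AGXT mice 308, 309, 316 and 319. The highest mouse was 2.95-fold above the lowest in the AAV8-GFP group and 2.35-fold in the AAV8-AGXT group. The groups overlapped, with mice 311 and 315 above mice 308 and 309. Means of 67.6 ± 33.2 and 102.7 ± 43.9 CPM gave a log2 fold change of 0.60 (SE 0.38, 95% interval -0.24 to 1.44, edgeR adjusted p = 0.335, exact permutation p = 0.229). Sds shares 360 bases with Plbd2 on the opposite strand. Tat, a fasting-induced aminotransferase named here after its values were seen, ran from 466.9 CPM in mouse 303 to 1529 in mouse 315 among AAV8-GFP mice and from 627 in mouse 309 to 1648 in mouse 319 among AAV8-AGXT mice. These were the lowest and highest animals for Sds too. Among other fasting genes, Hal and Prodh shared all of these extremes, while Pck1, G6pc and Gcgr shared some. Pck1, G6pc and Gcgr were also highest in AAV8-GFP mouse 315 and lowest in AAV8-AGXT mouse 309. They were lowest in AAV8-GFP mouse 314 instead, and their highest AAV8-AGXT mice were 308, 316 and 308. The extremes of the remaining fasting genes listed are not described here. Whether these genes vary together was not tested.

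Around these 9 enzymes, 52 other genes of glycine, serine and one-carbon folate metabolism were listed and 48 tested, of which 9 were called higher and 2 lower with AAV8-AGXT. Over all genes tested, 2.45% were called higher and 1.90% lower, shares that also belong beside the counts of each list below. For DESeq2 calls the shares were 7.08% and 6.93%. Counts at an unadjusted p under 0.05 belong beside the rank of Glyat, 4027 of 15248 genes at an edgeR p of 0.0509. The median log2 fold change of the 48 was 0.20, beside 0.02 over all genes tested. In 19 of them the groups did not overlap, against 16.6% of all genes tested. Without mouse 311, 314 or 319 the fits called 0 of these genes in either direction, and over the whole table the fit without mouse 311 called 2 genes higher and 0 lower. A list of glycine supply and use, which also holds Dld, had 6 of the 9 higher calls, among 16 tested, and 0 were called lower (3 were lower at an unadjusted p under 0.05, 1 by DESeq2 and 0 by limma-voom), with a median of 0.51.

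Gnmt, which methylates glycine to sarcosine in the cytosol, had the largest fold change of the called pathway genes. It read 337, 360.4, 440.5 and 449 CPM in AAV8-GFP mice 303, 311, 314 and 315, and 1235, 621, 945 and 1148 CPM in AAV8-AGXT mice 308, 309, 316 and 319. No AAV8-GFP mouse reached the lowest AAV8-AGXT mouse, mouse 309. The log2 fold change was 1.32 (SE 0.22, 95% interval 0.83 to 1.80, edgeR adjusted p = 0.0276). Sardh and Dmgdh, mitochondrial enzymes that strip methyl groups from sarcosine and dimethylglycine and so return glycine, rose as well, from 380.4 ± 56.9 to 649 ± 75.7 CPM for Sardh and from 208 ± 29.4 to 357 ± 26.5 CPM for Dmgdh. Their log2 fold changes were 0.77 (SE 0.15, edgeR adjusted p = 0.0344) and 0.78 (SE 0.13, edgeR adjusted p = 0.0283). Gnmt and Dmgdh were called in 5 of 8 fits without a mouse and Sardh in 3. Without mouse 311 the log2 fold changes were 1.253, 0.69 and 0.67 and the edgeR adjusted p rose to 0.115, 0.127 and 0.115 for Gnmt, Sardh and Dmgdh. Without mouse 314 or 319 these 3 genes had edgeR adjusted p between 0.0774 and 0.0885.

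Shmt1, the cytosolic counterpart of Shmt2, was called higher, from 87.9 ± 12.6 to 133 ± 14.4 CPM (log2 fold change 0.59, SE 0.13, edgeR adjusted p = 0.0413). Alas1, which joins glycine to succinyl-CoA at the start of haem synthesis, rose from 541 ± 156 to 1292 ± 339 CPM (log2 fold change 1.26, SE 0.26, edgeR adjusted p = 0.0366). Shmt1 was called in 2 of 8 fits without a mouse and Alas1 in 3. Without mouse 311 the edgeR adjusted p was 0.145 for Shmt1 and 0.124 for Alas1, at log2 fold changes of 0.52 and 1.38. Shmt1 shares 184 bases with Smcr8, Sardh 188 with Sardhos, Dmgdh 215 with AW495222 and Alas1 465 with 4930500F10Rik, each on the opposite strand. Mouse Agxt read 148, 179.9, 152.5 and 175 CPM in AAV8-GFP mice 303, 311, 314 and 315, and 405, 201.5, 243 and 371 CPM in AAV8-AGXT mice 308, 309, 316 and 319. Every AAV8-AGXT mouse was above every AAV8-GFP mouse (log2 fold change 0.90, SE 0.22, edgeR adjusted p = 0.0489). Only 1 of the 8 fits without a mouse kept the call, with edgeR adjusted p from 0.0316 to 0.145, highest without mouse 311. Of the 8 other alternatives, 3 kept the call, and the highest adjusted p was 0.0566, in edgeR with total counts. The virus carried human AGXT, and reads of it counted on mouse Agxt cannot be told apart from reads of the mouse gene.

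In the folate list, 2 of 12 tested genes were called higher and 1 lower, and the median was -0.13. Mthfd1 and Aldh1l1, cytosolic enzymes that handle one-carbon units on folate, rose from 114 ± 9.59 to 157 ± 15.6 CPM and from 307 ± 46.3 to 491 ± 73.8 CPM (log2 fold changes 0.46 and 0.68, SE 0.11 and 0.16, edgeR adjusted p = 0.0495 and 0.0451). Mthfd2, the mitochondrial dehydrogenase and cyclohydrolase, fell from 6.17 ± 0.920 to 3.07 ± 0.598 CPM, a log2 fold change of -1.0 (SE 0.20, edgeR adjusted p = 0.0349). The call of Mthfd1 was held in 1 of 8 fits without a mouse and in 3 of 8 other alternatives (edgeR adjusted p = 0.202 with total counts), that of Aldh1l1 in 2 and 7, and that of Mthfd2 in 3 and 8. Leaving out mouse 311 raised the edgeR adjusted p to 0.176 for Mthfd1, 0.156 for Aldh1l1 and 0.135 for Mthfd2, at log2 fold changes of 0.42, 0.63 and -0.95. Mthfd1l, its mitochondrial partner, was named after its values were seen, and it read 3.06 ± 0.649 and 1.59 ± 0.584 CPM with groups that did not overlap and an edgeR adjusted p of 0.0983. Whether cytosolic and mitochondrial enzymes differed in their change was not tested.

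Among transporters, 1 of 10 tested genes was called higher and 1 lower, with a median of 0.22. Slc38a3, a carrier of glutamine and other small amino acids in hepatocytes, rose from 853 ± 110 to 1603 ± 358 CPM (log2 fold change 0.91, SE 0.19, edgeR adjusted p = 0.0372). Slc1a5, an exchanger of neutral amino acids, fell from 13.4 ± 2.18 to 8.03 ± 1.64 CPM (log2 fold change -0.74, SE 0.18, edgeR adjusted p = 0.0495). The call of Slc38a3 was held in 2 of 8 fits without a mouse and in 8 of 8 other alternatives, and that of Slc1a5 in 1 and 6, with edgeR adjusted p of up to 0.138 and 0.166, both without mouse 311. Of 7 genes of serine supply and use, 0 were called, with 1 higher and 1 lower at an unadjusted p under 0.05, 0 and 1 by DESeq2 and 0 by limma-voom. Srr, which turns serine into its D form, and Sptlc2, which uses serine for sphingolipids, had log2 fold changes of 0.31 and -0.48 (edgeR adjusted p = 0.149 and 0.0903). For 3 enzymes of lipoyl attachment and transfer, Lias and Lipt2, which build the arm on GCSH, and Lipt1, which passes lipoyl groups on to other complexes, 0 were called, with 1 higher at an unadjusted p under 0.05 and 0 by DESeq2 and limma-voom. Lias and Lipt1 had log2 fold changes of 0.25 and 0.26 (edgeR adjusted p = 0.140 and 0.292). Lipt2, named after its values were seen, had a log2 fold change of -0.25 (edgeR adjusted p = 0.367) with groups that did not overlap.

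**Figure D4:**
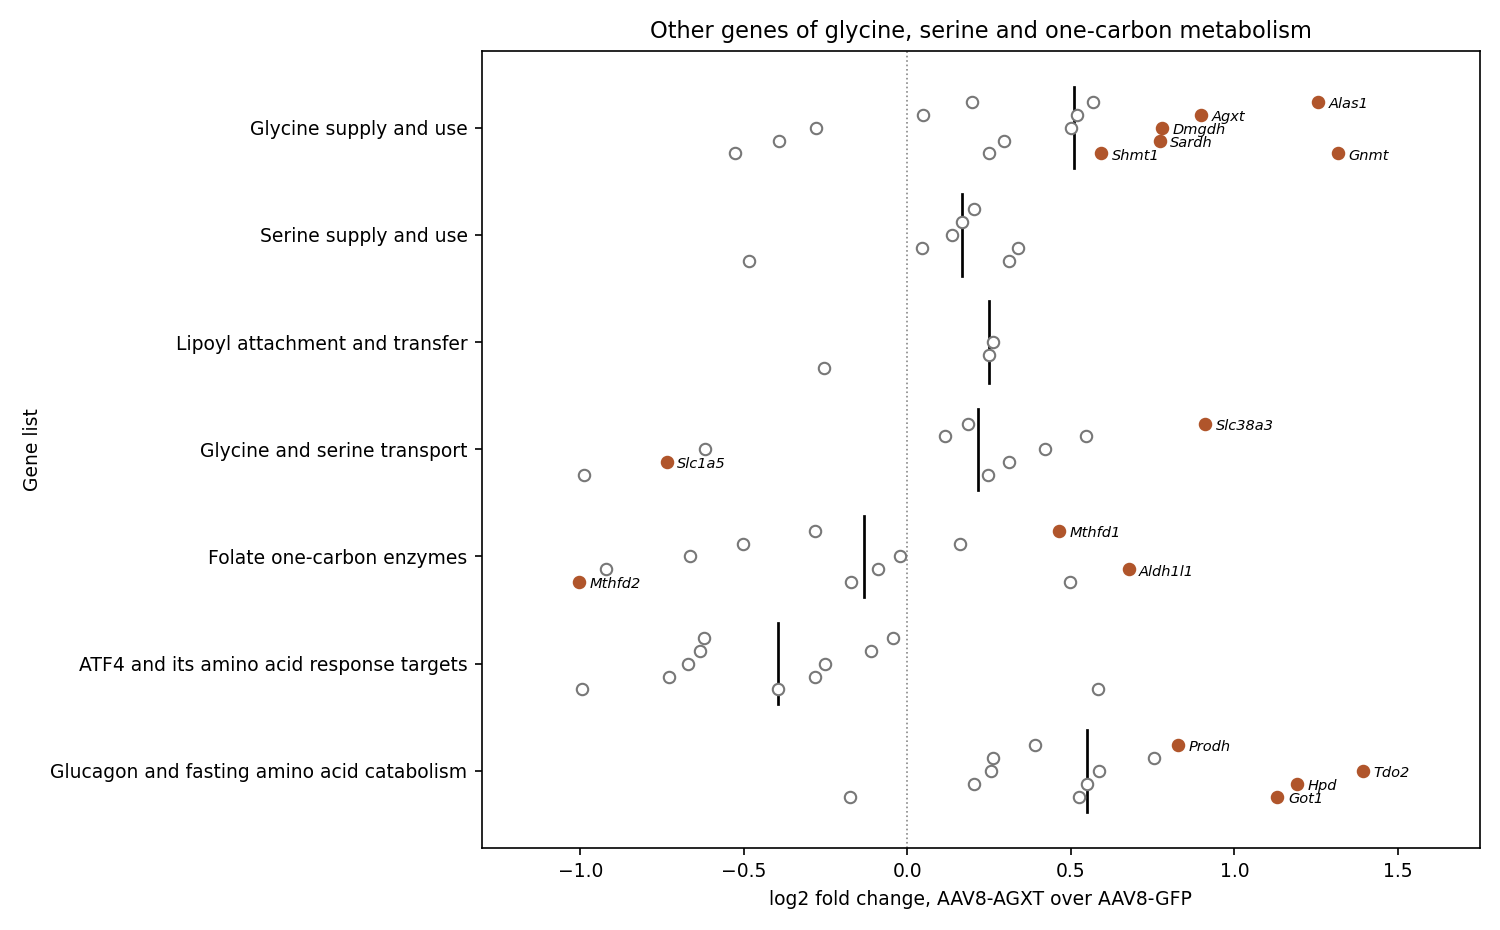
Log2 fold change, AAV8-AGXT over AAV8-GFP, of the tested genes in each list around the 9 enzymes, with a vertical bar at each list's median and filled points for genes with an edgeR adjusted p under 0.05. Filled points lie right of 0 for Gnmt, Alas1, Agxt, Dmgdh, Sardh, Shmt1, Slc38a3, Aldh1l1, Mthfd1, Tdo2, Hpd, Got1 and Prodh and left of 0 for Mthfd2 and Slc1a5, and the medians of the top and bottom lists are 0.51 and 0.55.

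Serine synthesis genes and Mthfd2 are known targets of ATF4, the transcription factor of the amino acid and mitochondrial stress response. Of 11 tested genes in a list of ATF4 and other targets, 0 were called (0 higher and 2 lower at an unadjusted p under 0.05, 0 and 1 by DESeq2, 0 by limma-voom). Means were lower for 10 of 11, with a median log2 fold change of -0.40, while 7974 of all 15248 genes tested had higher means. Asns, named after its values were seen, was the 1 with a higher mean (log2 fold change 0.58, edgeR adjusted p = 0.308). Atf4 itself, also named afterwards, was at -0.11 (edgeR adjusted p = 0.611). Ddit3 read 41.3 ± 10.5 and 25.96 ± 7.17 CPM and Chac1 13.2 ± 4.30 and 6.59 ± 4.44 CPM (edgeR adjusted p = 0.101 and 0.171). Chac1 was called in 1 of 8 fits without a mouse and in 0 of 8 other alternatives. That fit left out mouse 309 (log2 fold change -1.54, edgeR adjusted p = 0.0496), and the highest edgeR adjusted p was 0.357, without mouse 314. Sds is known for induction by glucagon, and of 13 genes of glucagon and fasting amino acid catabolism 4 were called higher and 0 lower, with a median of 0.55. Over all genes tested the shares were 2.45% and 1.90%. Pck1, Tat, Gcgr and G6pc of that list, named after their values were seen, were not called. Their log2 fold changes were 0.55, 0.52, 0.26 and -0.17 (edgeR adjusted p = 0.145, 0.421, 0.423 and 0.763). A response to glucagon or fasting was not tested. Tdo2, Hpd, Got1 and Prodh, which start the breakdown of tryptophan, tyrosine, aspartate and proline or act early in it, had log2 fold changes of 1.39, 1.19, 1.13 and 0.83 (edgeR adjusted p = 0.0279, 0.0336, 0.0374 and 0.0413). Tdo2 and Hpd were called in 4 of 8 fits without a mouse, Got1 in 3 and Prodh in 2, with the highest edgeR adjusted p without mouse 311 (0.115, 0.126, 0.138 and 0.137).

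Summed markers of hepatocytes, of pericentral hepatocytes and of dividing cells did not overlap between the groups, and the other marker sums did. Most of the hepatocyte sum was Alb, with means of 29998 and 37995 CPM in AAV8-GFP and AAV8-AGXT mice and overlapping groups. Most of the pericentral sum was Cyp2e1, with means of 5450 and 12061 CPM. Taken singly, 2 of 6 hepatocyte and 2 of 6 pericentral genes had groups that did not overlap, against 16.6% of all genes tested. The 6 hepatocyte markers matched had higher means in AAV8-AGXT mice, 1 of them called (Cps1), and their summed level ran from 43224 to 51936 CPM in AAV8-GFP mice and from 53063 to 73849 CPM in AAV8-AGXT mice, without overlap. The 6 pericentral and 6 periportal genes also had higher means, with medians of 1.05 and 0.40 and 2 and 1 called (Cyp2e1 and Oat, and Arg1). Means were lower for 5 of 7 macrophage genes (sum 441 to 761 against 209 to 605 CPM, 0 called), 6 of 7 stellate or fibroblast genes (sum 398 to 657 against 195 to 466 CPM, 1 called, Acta2), 5 of 5 cholangiocyte genes (sum 225 to 673 against 74.1 to 272 CPM, 0 called) and 5 of 5 genes of dividing cells (sum 20.5 to 34.5 against 4.49 to 11.1 CPM, 4 called, Cdk1, Ube2c, Mki67 and Ccnb1). At an unadjusted p under 0.05, 2 macrophage and 5 cholangiocyte genes were lower, and DESeq2 called 2 and 4 of them. Over all genes, DESeq2 called 6.93% lower. The 5 endothelial genes had higher means and 0 were called by edgeR, DESeq2 or limma-voom or reached an unadjusted p under 0.05, with sums of 93.1 to 146 and 107 to 170 CPM. Next to the calls, the smallest p of their lists belonged to Hnf4a, Hal, Itgam, Cd68, Col1a1, Spp1, Sox9, Kdr and Cdh5, with edgeR adjusted p from 0.0704 for Spp1 to 0.384 for Cdh5. Without mouse 311 none of the called markers kept its call. No marker was at 0 in all mice. Gcsh, Shmt2 and Amt had log2 fold changes of 0.40, 0.30 and 0.02 beside a median of 0.40 for the hepatocyte markers, and the part of cell composition in these values was not tested.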

How the data were processed

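Livers of 8 mice, 4 per group by the treatment in the labels, gave 1 stranded mRNA library each. The authors trimmed read pairs with Trimmomatic 0.35, aligned them with HISAT2 2.1.0.13 (GRCm38) and used HTSeq to assign them to Ensembl genes, and the deposited values are raw counts. The strand option and overlap mode are not given in the sources used here. Of 52636 genes, 52403 were matched to GENCODE M21. Counts were tested in R 4.3.3 with edgeR 4.0.16 (filterByExpr, TMM, quasi-likelihood test, treatment as the only term), with Benjamini-Hochberg adjustment over 15248 genes. Log2 fold changes used a prior count of 0.125. Single genes also had a two-sided exact permutation test on log2 CPM (prior count 2) over 70 arrangements. Alternatives were DESeq2 1.42.0, limma-voom (limma 3.58.1), robust estimation, 3 other scalings, 2 other filters and each mouse left out. The common biological coefficient of variation was 23.3%, so spread between mice limits precision except for the scarcest genes. Scripts were tested on simulated data. The 9 genes and the lists were chosen with earlier results of these data known. All 9 were to be named, with each called gene of every other list or, where fewer than 2 passed, its 2 smallest p. Levels between genes use CPM per kilobase of merged exons. Hal and Sdsl are each in 2 lists.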

Additional observations from a re-analysis of the deposited data

Results flagged for a closer look

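For the 9 enzymes and the 39 genes named by rule, each group of 4 mice was checked for a mouse far from its others, 96 checks in all, of which chance flags about 1 in 20. Genes named outside the rule (Tat, Mthfd1l, Dld, Lipt2, Asns, Atf4, Pck1, G6pc, Gcgr and Alb) were not checked. None of the 9 glycine and serine enzymes had such a mouse. In 5 other cases the gap between the extreme mouse and its nearest neighbour took up an unusually large part of the group's range. The ratio was 0.855 for Sptlc2 in AAV8-GFP mouse 314 (59.8 CPM), 0.954 for Lipt1 in AAV8-GFP mouse 303 (5.23 CPM), 0.837 for Tdo2 in AAV8-AGXT mouse 308 (1750 CPM), 0.869 for Got1 in AAV8-AGXT mouse 316 (327 CPM) and 0.931 for Oat in AAV8-GFP mouse 303 (1079 CPM).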

How the results depend on the processing

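Of 142 alternative values for the 9 enzymes, 9 changed sign, 12 lost the call and 1 gained it. The count of enzymes called higher, 1 with TMM in edgeR, was 2 with DESeq2 and 0 with upper-quartile scaling, total counts, no filter, at least 10 counts in every mouse and in every fit without 1 mouse (range 0 to 0). None was called lower in any of the 16 fits. The sign of Gldc turned with total counts (-0.15), without mouse 311 (-0.055) and without mouse 309 (-0.13). Amt turned with upper-quartile scaling (-0.047), total counts (-0.22), no filter (-0.0039), at least 10 counts (-0.021), without mouse 311 (-0.046) and without mouse 309 (-0.072). Without 1 mouse, Gldc ran from -0.13 to 0.27 and Amt from -0.072 to 0.077. Total counts moved the median of all genes to -0.22, and relative to that median Gcsh was at 0.38 under both scalings and Amt at 0.0038. Other pathway genes called higher numbered 9, and 4 with total counts and 0 to 9 without 1 mouse (0 without mouse 311, 314 or 319, 2 without 303, 3 without 308 and 5 without 316). Those called lower numbered 2, and 7 with DESeq2, 1 with limma-voom, 1 with upper-quartile scaling, 6 with total counts and 0 to 2 without 1 mouse (0 without mouse 303, 308, 311, 314 or 319, and 1 without 309 or 315). Over all genes, the fit without mouse 311 called 2 higher and 0 lower, that without mouse 314 called 11 and 4, and that without mouse 319 called 12 and 2, against 374 and 290 with all mice. The cause was not tested. No paired analysis was possible because the groups share no animal numbers. Depth limits Phgdh and Psat1, with as few as 8 counts in a mouse.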
